A study of Mus musculus with 12 samples.

Results

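The genes examined were 10 feedback inhibitors of the ERK MAP kinase pathway, taken by their Ensembl mouse gene IDs from 37583 IDs counted in 12 RNA-seq libraries of Ocy454 cells. They comprised 5 dual-specificity phosphatase genes (Dusp1, Dusp4, Dusp5, Dusp6 and Dusp10), 3 Sprouty genes (Spry1, Spry2 and Spry4) and 2 Sprouty-related genes (Spred1 and Spred2). All 10 were found, and all 10 were among the 14904 genes that passed the filter on low counts and were tested.

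Ocy454 is a mouse osteocyte line from long bone, osteocytes being the bone cells embedded in matrix that sense mechanical load, and a single-cell subclone of it was used after 14 days of differentiating culture. Control cells carried the label of original cells, while the DKO line was labelled as deleted for HDAC4 and HDAC5, class IIa histone deacetylases that repress transcription in the nucleus. Each genotype was either left static or given fluid flow shear stress (FFSS) for 3 h on an orbital platform, with 3 libraries per group, to ask whether HDAC4 and HDAC5 are needed for transcriptional responses to flow. Per the study's methods, genome editing used CRISPR with Cas9 delivered by lentivirus. Since the DKO line was compared with a single control line, effects of the deletions and other differences between those lines cannot be told apart, and the sources used here do not say whether the line was 1 clone.

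ERK is a kinase at the end of the cascade that runs from receptor tyrosine kinases through RAS, RAF and MEK, and it responds within minutes to growth factors and mechanical stimuli. Active ERK induces genes whose products switch the same cascade off. Dual-specificity phosphatases remove phosphate from threonine and tyrosine in the activation loop of MAP kinases, whereas Sprouty and Spred proteins act upstream of the kinases and limit activation of RAS and RAF, so transcripts of several of these genes are often used as a readout of ERK activity.

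The libraries held 17.6 to 19.2 M reads assigned to genes, and the 10 genes had 108 to 2426 counts in each, well above the floor of 3 counts (0.156 to 0.171 CPM, counts scaled to a common library size). Levels below are CPM on TMM-scaled totals, with the SD over n = 3 libraries, and the same counts divided by exon length (FPKM) where genes are compared with each other. Hdac4 (ENSMUSG00000026313) was lower in DKO than in control static cells by 0.85 on the log2 scale (−0.85, 14.5 ± 2.43 against 26.1 ± 2.67 CPM) and Hdac5 by 0.65 (−0.65, 84.5 ± 5.54 against 133 ± 7.04 CPM). Under FFSS that Hdac4 ID differed by −1.48, but Hdac5 by 0.19 (92.8 ± 0.456 against 81.2 ± 9.56 CPM, edgeR adjusted p = 0.0512). A further ID with the symbol Hdac4 (ENSMUSG00000073617) was at 17.6 ± 0.482 CPM in DKO and 23.1 ± 1.93 CPM in control static cells. Under FFSS its levels were 17 ± 0.896 and 24.2 ± 6.09 CPM. Counts over whole genes do not resolve the edited sequence, so these levels do not check the edits, and DKO stands here for the libraries so labelled. Osteocyte markers, of which 4 were higher and 1 lower in DKO static cells among 5 tested, summed to 78.1 to 117 CPM in control static and 62.4 to 184 CPM in control FFSS cells, against 3600 to 3680 and 3620 to 4020 CPM in DKO cells. Fgf23 was at or near 0 in every group. Chondrocyte markers, 4 of 5 higher in DKO static cells, summed to 78.3 to 103 and 50.8 to 83.4 CPM in control static and FFSS cells, against 2380 to 2970 and 2020 to 2500 CPM in DKO cells, with Matn1 at 0 in all control libraries. Osteoblast markers, 2 of 6 higher in DKO static cells and 3 of 6 lower under FFSS in control cells (Sp7 −1.59, Col1a1 −1.0 and Runx2 −0.66), summed to 19600 to 23700 and 6450 to 19800 CPM in control static and FFSS cells, against 58300 to 65600 and 60500 to 62500 CPM in DKO cells. Endothelial and adipocyte markers stayed at or below 1.02 and 2.58 CPM. Leukocyte markers, 2 higher and 1 lower of 3 tested in DKO static cells, summed to 27.7 to 32.5 and 19.2 to 29.3 CPM in control cells and to 8.57 to 9.38 and 8.01 to 9.98 CPM in DKO cells, with Ptprc at or near 0 in every group. Under FFSS in control cells Pdpn of the osteocyte markers was higher (0.63), Sox9 of the chondrocyte markers lower (−0.52), and of the leukocyte markers Csf1r was higher (1.43) and Cd68 lower (−0.50). The part of these marker differences in the results below was not tested. Control FFSS replicate 1 stood apart from replicates 2 and 3: 2.92% of genes in it lay over 2-fold from the static mean, against 11.5% and 11.9%. The share of reads outside annotated genes was 5.10 to 5.21% in control static cells, and 5.87%, 9.19% and 10% in control FFSS replicates 1, 2 and 3. In DKO cells it was 7.07 to 7.14% static and 7.93 to 8.55% under FFSS.

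In control static cells the order of levels per exon length ran from Spry1 (27.8 ± 0.443 FPKM) through Spred2 (20.7 ± 0.479 FPKM), Spred1 (18.1 ± 0.0865 FPKM), Dusp1 (12.4 ± 0.225 FPKM), Dusp10 (9.38 ± 0.268 FPKM) and Dusp6 (8.03 ± 0.224 FPKM) down to Spry4 (1.40 ± 0.164 FPKM). Between Dusp6 and Spry4 lay Dusp4 (6.78 ± 0.995 FPKM), Spry2 (6.22 ± 0.432 FPKM) and Dusp5 (5.98 ± 0.480 FPKM), whose levels did not differ beyond their spread. In DKO static cells Spred1 was highest (19.3 ± 0.341 FPKM), Spred2 next (14.3 ± 0.227 FPKM) and Dusp4 lowest (2.66 ± 0.196 FPKM). Spry2 (12.5 ± 0.448 FPKM), Dusp10 (12.1 ± 0.479 FPKM), Spry1 (11.9 ± 0.645 FPKM) and Dusp1 (11.2 ± 1.15 FPKM) were then neighbours within their spread. The plot of all 10 genes by library shows the values compared.

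**Figure D1:**
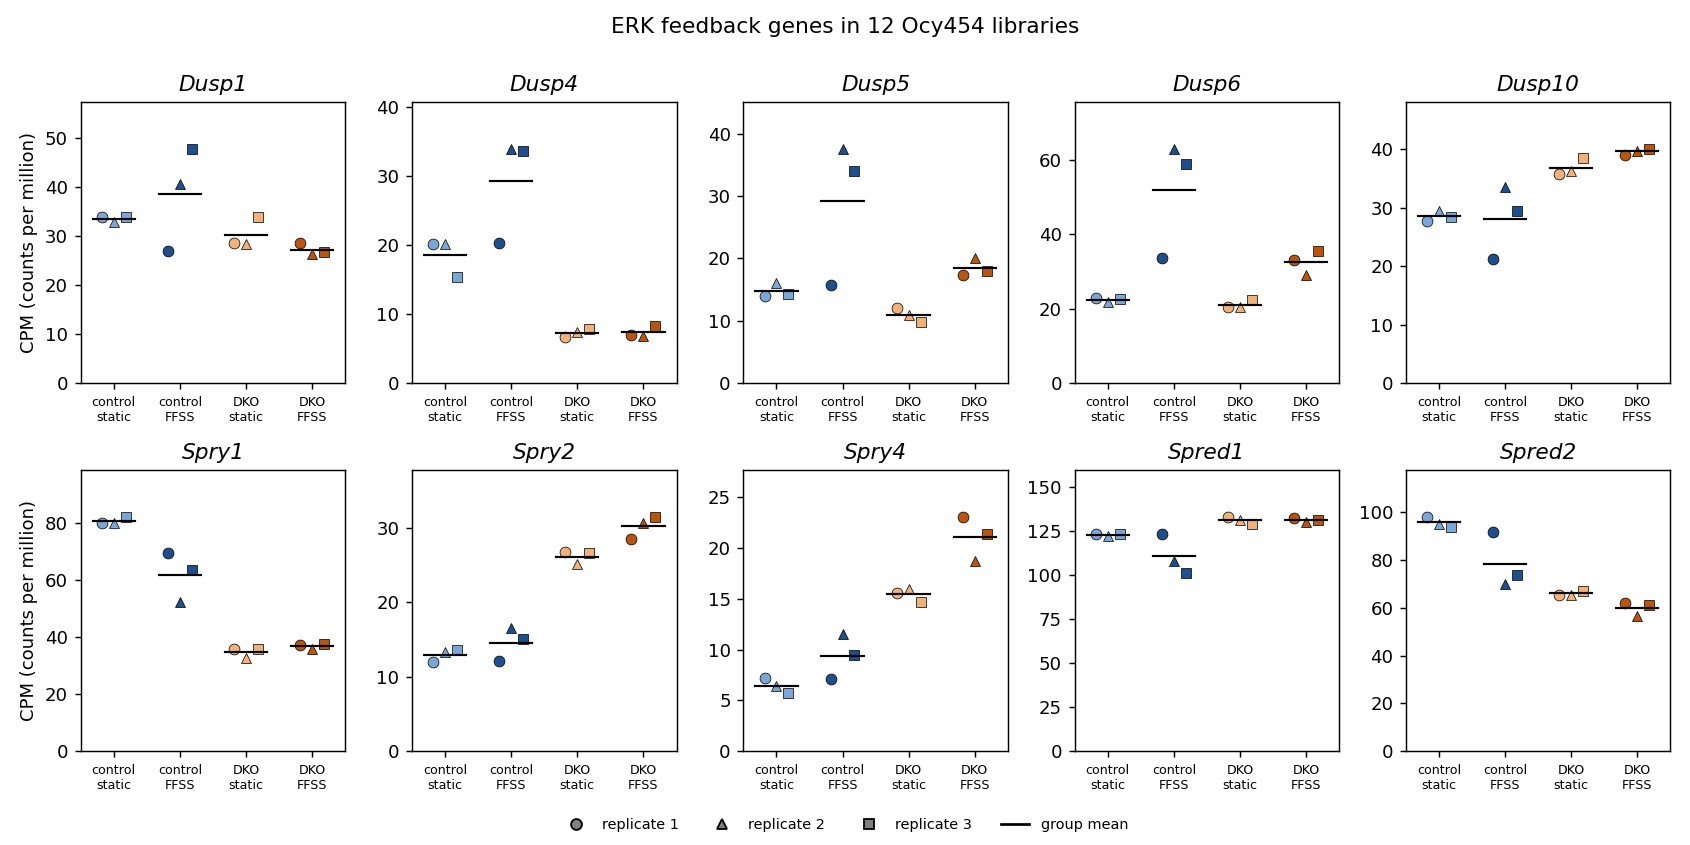
Level of each gene in CPM (vertical axes, linear, starting at 0) in the 12 libraries, with symbols for replicate numbers, colours for the 4 groups and a horizontal line at each group mean. Dusp4, Dusp5 and Dusp6 reached 33.5 CPM or more in control FFSS replicates 2 and 3, while Spry1 was lower and Spry2 and Spry4 higher in every DKO library than in every control library.

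The first comparison asked which feedback genes responded to 3 h of FFSS in control cells. Of the 10 genes, 4 rose (Dusp6, Dusp5, Dusp4 and Spry4) and 2 fell (Spry1 and Spred2) at an adjusted p under 0.05 in edgeR's quasi-likelihood test, where 35.8% of all genes tested passed in either direction (17.7% higher and 18.1% lower). Dusp6 alone among them also changed over 2-fold, as 5.93% of all genes did (3.96% higher). The median log2 fold change was 0.19 over the 10 genes and 0.01 over all genes tested, and the median absolute change was 0.34 and 0.26.

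Dusp6 (ENSMUSG00000019960, mm9 chr10:98725865-98730122, plus strand) encodes a cytoplasmic phosphatase with high selectivity for ERK. Its level was 23.0, 21.8 and 22.6 CPM in control static replicates 1, 2 and 3, and 33.6, 63.0 and 58.8 CPM in the corresponding FFSS libraries. All 3 FFSS libraries lay above all 3 static libraries, replicate 1 by the least. The log2 fold change was 1.21 (2.31-fold, SE 0.19, 95% interval 0.80 to 1.62, edgeR adjusted p = 0.00083). It stayed past the threshold in each of 21 alternative analyses, at log2 fold changes of 0.46 to 1.44.

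Dusp5 (ENSMUSG00000034765, chr19:53603599-53616921, plus strand) encodes a nuclear phosphatase that acts on ERK and also retains it in the nucleus. It was at 13.9, 16.1 and 14.3 CPM in static and 15.7, 37.6 and 34.1 CPM in FFSS control cells. Replicates 2 and 3 under FFSS were more than 30 CPM, whereas replicate 1 lay within the static range, and so the groups overlapped. The log2 fold change was 0.98 (1.97-fold, SE 0.26, 95% interval 0.41 to 1.55, edgeR adjusted p = 0.0144). Without control FFSS replicate 2 it was 0.76 (edgeR adjusted p = 0.0502), and without replicate 3 it was 0.85 (edgeR adjusted p = 0.0549).

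The start regions of Dusp6 and Dusp5, which rose together, are shown with those of Spry1 and Spry2, which differed in opposite directions between the genotypes (below). Each runs from 250 bases before to 50 bases after the RefSeq start in GRCm38.p6, and capitals mark the motif matches found. Motifs were searched on both strands in 8 of the 10 genes, and Dusp4 and Spry4 were not searched. The motifs were the ETS core CCGGAA, the AP-1 site TGANTCA, the cyclic AMP response element TGACGTCA, the CArG box bound by SRF and the MEF2 site. Among 32851 promoters of that length, 14.9%, 7.81%, 1.79%, 1.63% and 3.19% respectively held a match.
Dusp6 (chr10:99262981-99263280, plus strand): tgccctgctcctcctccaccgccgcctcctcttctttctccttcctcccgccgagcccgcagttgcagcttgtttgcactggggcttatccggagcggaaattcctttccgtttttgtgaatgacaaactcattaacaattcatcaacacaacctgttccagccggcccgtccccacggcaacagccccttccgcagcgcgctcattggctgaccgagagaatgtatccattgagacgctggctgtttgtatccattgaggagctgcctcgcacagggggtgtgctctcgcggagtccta
Dusp5 (chr19:53528895-53529194, plus strand): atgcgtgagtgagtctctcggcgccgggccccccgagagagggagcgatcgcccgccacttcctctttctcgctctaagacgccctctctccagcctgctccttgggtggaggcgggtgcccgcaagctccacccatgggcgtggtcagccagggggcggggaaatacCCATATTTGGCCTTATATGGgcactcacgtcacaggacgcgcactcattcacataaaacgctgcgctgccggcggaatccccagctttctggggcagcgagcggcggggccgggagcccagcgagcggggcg
Spry1 (chr3:37639697-37639996, plus strand): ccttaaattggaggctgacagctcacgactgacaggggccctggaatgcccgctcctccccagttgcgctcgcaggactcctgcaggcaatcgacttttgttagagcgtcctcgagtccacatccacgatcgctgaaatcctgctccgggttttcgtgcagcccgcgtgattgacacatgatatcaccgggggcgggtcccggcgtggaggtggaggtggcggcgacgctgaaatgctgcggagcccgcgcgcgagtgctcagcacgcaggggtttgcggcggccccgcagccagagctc
Spry2 (chr14:105896770-105897069, minus strand): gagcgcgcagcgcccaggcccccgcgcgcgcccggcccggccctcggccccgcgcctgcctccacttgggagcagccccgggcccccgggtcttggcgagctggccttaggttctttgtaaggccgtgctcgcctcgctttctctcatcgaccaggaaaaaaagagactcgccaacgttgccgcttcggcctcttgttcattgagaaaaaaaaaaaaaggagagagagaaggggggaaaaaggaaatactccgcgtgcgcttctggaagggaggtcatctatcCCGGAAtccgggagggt

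The Dusp5 window held 2 adjoining CArG boxes, CCATATTTGG at position −82 and CCTTATATGG at position −72 from the start. The Spry2 window held the ETS string CCGGAA at position 34, beyond the start, and the Dusp1 window (chr17:26508423-26508722, minus strand) a cyclic AMP response element at position −143. None of the searched letter strings occurred in the windows of Dusp6, Dusp10, Spry1, Spred1 and Spred2. Other forms of these sites, among them shorter ETS strings, were not searched. A match describes the sequence and is not a measured binding site.

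Dusp4 (ENSMUSG00000031530, chr8:35870351-35882948, plus strand), a nuclear phosphatase of ERK and other MAP kinases, was at 20.1, 20.1 and 15.4 CPM in static and 20.3, 33.9 and 33.5 CPM in FFSS control cells. The lowest FFSS library was just above the highest static one. The log2 fold change was 0.66 (1.58-fold, SE 0.17, 95% interval 0.28 to 1.03, edgeR adjusted p = 0.0112), and 0.54 without control static replicate 3 (edgeR adjusted p = 0.0503). Dusp1 (ENSMUSG00000024190, chr17:26642535-26645464, minus strand), an immediate-early gene whose product dephosphorylates p38, JNK and ERK, was at 33.8, 32.8 and 33.9 CPM in static and 27, 40.7 and 47.8 CPM in FFSS control cells. Replicate 1 lay below and replicates 2 and 3 above the static libraries. Its log2 fold change of 0.20 (95% interval −0.14 to 0.54) did not pass (edgeR adjusted p = 0.339). Dusp10 (ENSMUSG00000039384, chr1:185837181-185899515, plus strand), a phosphatase that prefers JNK and p38 to ERK, differed by −0.02 (95% interval −0.28 to 0.24, edgeR adjusted p = 0.915), with 27.7 to 29.4 CPM in static and 21.3 to 33.6 CPM in FFSS libraries. The Dusp10 locus overlaps 1700056E22Rik on the opposite strand but shares 0 exon bases with it.

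The Sprouty genes moved in different directions in control cells. Spry4 (ENSMUSG00000024427, chr18:38745922-38760922, minus strand), an inhibitor of growth factor signalling to ERK, was at 7.19, 6.40 and 5.68 CPM in static and 7.14, 11.5 and 9.45 CPM under FFSS. FFSS replicate 1 again lay within the static range. The log2 fold change was 0.54 (1.46-fold, SE 0.16, 95% interval 0.21 to 0.88, edgeR adjusted p = 0.0164), and it was lost without control FFSS replicate 2 (0.37, edgeR adjusted p = 0.0823) or control static replicate 3 (0.46, edgeR adjusted p = 0.0720). Spry1 (ENSMUSG00000037211, chr3:37538869-37543520, plus strand), which antagonises fibroblast growth factor and other receptor tyrosine kinase signalling, was at 79.9, 79.9 and 82.1 CPM in static and 69.2, 52.1 and 63.4 CPM under FFSS. Every FFSS library lay below every static library, and the log2 fold change was −0.39 (1.31-fold lower, SE 0.09, 95% interval −0.57 to −0.21, edgeR adjusted p = 0.00376). With the share of reads outside genes in the model it was −0.22 and did not pass (edgeR adjusted p = 0.168). Spry2 (ENSMUSG00000022114, chr14:106291166-106296036, minus strand), a further receptor tyrosine kinase antagonist, was at 11.9 to 13.6 CPM in static and 12.1 to 16.5 CPM in FFSS libraries. The groups overlapped and the log2 fold change of 0.17 (95% interval −0.06 to 0.40) did not pass (edgeR adjusted p = 0.228).

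Spred proteins bring neurofibromin to the membrane, where it inactivates RAS. Spred2 (ENSMUSG00000045671, chr11:19824378-19924029, plus strand) was at 98.2, 95.1 and 93.9 CPM in static and 91.6, 69.8 and 73.8 CPM in FFSS control cells. The groups did not overlap, FFSS replicate 1 lay nearest to the static libraries, and the log2 fold change was −0.29 (1.22-fold lower, SE 0.08, 95% interval −0.47 to −0.11, edgeR adjusted p = 0.0170). This call was lost without control FFSS replicate 2 (−0.21, edgeR adjusted p = 0.0709), control FFSS replicate 3 (−0.25, edgeR adjusted p = 0.0649) or control static replicate 1 (−0.27, edgeR adjusted p = 0.0625), with library totals in place of TMM factors (−0.17, edgeR adjusted p = 0.0641), in a fit of the 6 control libraries alone (edgeR adjusted p = 0.0956) and with the share of reads outside genes in the model (−0.02, edgeR adjusted p = 0.891). Spred1 (ENSMUSG00000027351, chr2:116947110-117008015, plus strand) was at 122 to 123 CPM in static and 123, 108 and 101 CPM in FFSS libraries, and its log2 fold change of −0.15 (95% interval −0.28 to −0.01) did not pass (edgeR adjusted p = 0.0884). The FFSS libraries of 2 genes lay wholly above and those of 2 genes wholly below the static libraries, and the other 6 genes overlapped, where 41.3% of all genes did not overlap (19.3% above and 22% below).

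The size of the response in control cells differed between libraries. Against the static mean, the log2 differences of replicates 1, 2 and 3 were 0.58, 1.48 and 1.38 for Dusp6, 0.09, 1.34 and 1.21 for Dusp5, and 0.14, 0.88 and 0.86 for Dusp4. Without replicate 1, 9 of the 10 genes passed (Dusp1, Spry2 and Spred1 in addition), where 55% of all genes then did, and Dusp6 reached a log2 fold change of 1.44 (edgeR adjusted p = 1.65e-15). Without replicate 2, 3 of the 10 genes passed (Dusp4, Dusp6 and Spry1), where 25.7% of all genes did. The share of reads outside genes was highest in replicates 2 and 3, those with the larger response. In both genotypes every FFSS library had a higher share than every static library. A model with that term can therefore separate FFSS from the share only through differences between libraries of the same group. With that share as a term in the edgeR model, 3 of the 10 genes passed, where 15.4% of all genes did. Dusp6 remained higher under FFSS (0.46, adjusted p = 0.0134), while the log2 fold changes of Dusp4, Dusp5 and Spry4 were 0.01, −0.05 and 0.14 and did not pass. The other genes to pass were Dusp1 and Dusp10, at −0.45 (adjusted p = 0.0128) and −0.47 (adjusted p = 0.0109). In a fit of the 6 control libraries alone, Dusp6 and Spry1 passed, where 14.7% of all genes did.

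The second comparison asked how the same genes responded in DKO cells. Here 0 of the 10 genes passed in the edgeR fit of all 12 libraries, where 0.872% of all genes did, and 1.57% when control FFSS replicate 2 was left out. At an unadjusted p under 0.05 the count was 3 (Dusp5, Dusp6 and Spry4), against 13.5% of all genes, and with DESeq2 it was 2 (Dusp5 and Dusp6), against 2.68%. With limma-voom the count was 0, where 106 of the 14904 genes tested passed. In an edgeR fit of the 6 DKO libraries alone, whose spread was smaller than that of control FFSS cells (biological coefficient of variation 0.0446 static and 0.0359 under FFSS, against 0.190), 4 genes rose, Dusp5, Dusp6, Spry2 and Spry4, where 11.2% of all genes passed. The median log2 fold change was 0.10 over the 10 genes and −0.01 over all genes. For 5 genes every FFSS library lay above every static library and for 1 gene below, where 29.9% of all genes did not overlap (14% above and 15.9% below). With the share of reads outside genes in the edgeR model, 3 genes passed, Dusp5 (0.44), Dusp6 (0.39) and Dusp1 (−0.35), against 9.95% of all genes.

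Dusp6 was at 20.4, 20.5 and 22.2 CPM in DKO static and 33.1, 29.0 and 35.4 CPM in DKO FFSS libraries. The groups did not overlap, and the log2 fold change of 0.63 (1.54-fold, SE 0.19, 95% interval 0.21 to 1.05) had an edgeR adjusted p of 0.165 in the fit of all libraries and of 2.3e-06 in the DKO libraries alone. Dusp5 was at 12, 10.9 and 9.83 CPM static and 17.3, 20 and 18.0 CPM under FFSS. Its groups did not overlap either, with a log2 fold change of 0.76 (1.69-fold, SE 0.27, 95% interval 0.16 to 1.35, edgeR adjusted p = 0.254, and 2.98e-06 in the DKO libraries alone). Spry4 was at 15.6, 16.0 and 14.7 CPM static and 23.1, 18.7 and 21.4 CPM under FFSS, all 3 FFSS libraries being higher. Its log2 fold change was 0.45 (1.37-fold, SE 0.14, 95% interval 0.15 to 0.75, edgeR adjusted p = 0.158). Spry2 was at 26.7, 25.1 and 26.6 CPM static and 28.5, 30.6 and 31.5 CPM under FFSS, a log2 fold change of 0.21 (95% interval 0.00 to 0.42, edgeR adjusted p = 0.383). All 3 FFSS libraries again lay above the static ones.

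For the remaining genes the intervals in DKO cells included 0. Dusp4 was at 6.71 to 7.77 CPM static and 6.84 to 8.22 CPM under FFSS, and its log2 fold change of 0.02 had an interval from −0.43 to 0.46 (edgeR adjusted p = 0.989). Spry1 (32.5 to 35.8 CPM static, 35.7 to 37.5 CPM under FFSS) differed by 0.09 (95% interval −0.10 to 0.28, edgeR adjusted p = 0.765). Spred1 differed by 0.00 (−0.14 to 0.14) and Spred2 by −0.14 (−0.32 to 0.04). The values for Dusp1 and Dusp10 were −0.15 (−0.50 to 0.20) and 0.10 (−0.15 to 0.36). The plot of the change under FFSS sets the 2 genotypes side by side.

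**Figure D2:**
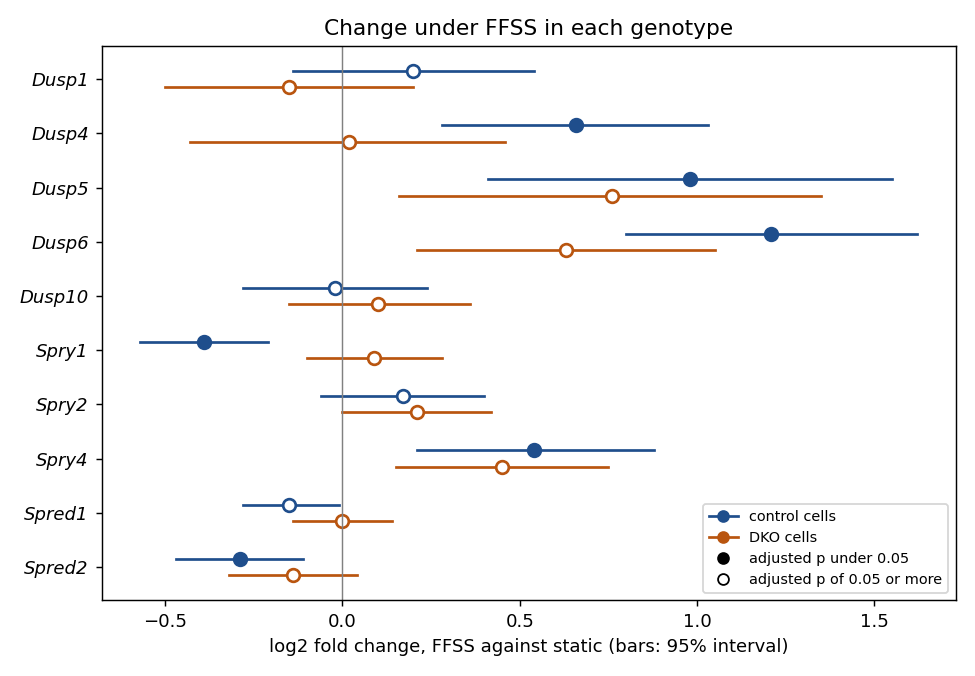
Log2 fold change of FFSS against static (horizontal axis) for each gene in control (blue) and DKO cells (orange). Points are edgeR estimates, bars their 95% intervals, and filled points passed at an adjusted p under 0.05. The 6 filled points are all in control cells, and in DKO cells the bars of Dusp5, Dusp6 and Spry4 lie above 0.

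Whether the response differed between genotypes was tested by an interaction term, the log2 change in DKO cells less that in control cells. Of the 10 genes 1 passed in edgeR, Spry1, with a positive difference, where 3.97% of all genes did (2.28% positive). At an unadjusted p under 0.05 the count was 2, with Dusp4, against 23.8% of all genes. Of all genes, 2.55% passed without control FFSS replicate 2 and 5.86% with reads outside genes in the model. The median difference was −0.03 over the 10 genes and −0.02 over all genes. For Spry1 the difference was 0.48 (SE 0.12, 95% interval 0.21 to 0.74, edgeR adjusted p = 0.0468). It kept its direction in all 20 alternatives (0.37 to 0.57) but was past the threshold in 7 of them. The differences for Dusp4 (−0.64, 95% interval −1.22 to −0.06, edgeR adjusted p = 0.172) and Dusp6 (−0.58, 95% interval −1.16 to 0.00, edgeR adjusted p = 0.214) were negative and did not pass. For Dusp5 (−0.23, 95% interval −1.05 to 0.60) and Spry4 (−0.09, 95% interval −0.54 to 0.36) the intervals were wide and included 0.

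These tests depended on control FFSS replicate 1. Without it, 7 of the 10 genes passed the interaction, where 37.6% of all genes then did. Responses were then lower in DKO than in control cells for Dusp4 (−0.84, edgeR adjusted p = 9.82e-05), Dusp6 (−0.81, edgeR adjusted p = 5.99e-07), Dusp1 (−0.55, edgeR adjusted p = 0.000203) and Dusp5 (−0.52, edgeR adjusted p = 0.00195). The difference was positive for Spry1 (0.57), Spred2 (0.27) and Spred1 (0.23), which fell in control cells in that analysis, and Spry4 (−0.25, edgeR adjusted p = 0.225) did not pass. Without that library Dusp5, Dusp6 and Spry4 also passed in DKO cells, where 10.5% of all genes did.

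The third comparison set DKO against control cells in static culture. In edgeR 3 of the 10 genes were higher in DKO cells (Spry4, Spry2 and Dusp10) and 3 lower (Dusp4, Spry1 and Spred2), where 54.2% of all genes passed in either direction (27% higher and 27.2% lower). Over 2-fold changes were found in 4 of them, 2 in each direction, where 15.3% of all genes were called (7.98% higher and 7.3% lower). The groups did not overlap for 8 of 10 genes, 4 in each direction, against 69% of all genes (34.9% higher and 34.1% lower). These libraries also enter the comparisons of FFSS with static cells, so the sets of values are not independent. With the share of reads outside genes in the model, 9 genes passed, where 58.1% of all genes did, Dusp10 no longer among them (0.11) and Dusp1 (−0.52), Dusp5 (−1.01), Dusp6 (−0.52) and Spred1 (0.22) in addition. The median log2 fold change was −0.12 over the 10 genes and 0.01 over all genes, and the median absolute change was 0.49 and 0.40. In bulk RNA fewer cells expressing a gene and less RNA per cell cannot be told apart.

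Among the phosphatases Dusp4 differed most between the lines. Its 20.1, 20.1 and 15.4 CPM in control static libraries stood against 6.71, 7.35 and 7.77 CPM in DKO static libraries. The highest DKO library was below the lowest control library, and the log2 fold change was −1.35 (2.55-fold lower, SE 0.19, 95% interval −1.76 to −0.94, edgeR adjusted p = 5.13e-05). Dusp10 was higher by 0.37 (1.29-fold, 36.9 ± 1.46 against 28.5 ± 0.814 CPM, edgeR adjusted p = 0.0164), a call lost without control static replicate 1 (0.35, edgeR adjusted p = 0.0546) or DKO static replicate 3 (0.34, edgeR adjusted p = 0.0581), or with library totals in place of TMM factors (0.29, edgeR adjusted p = 0.0994). Dusp6, at 21.0 ± 1.01 CPM in DKO and 22.5 ± 0.627 CPM in control static cells, differed by −0.09 (95% interval −0.52 to 0.33, edgeR adjusted p = 0.712). The corresponding differences were −0.15 for Dusp1 (edgeR adjusted p = 0.461) and −0.44 for Dusp5 (95% interval −1.04 to 0.17, edgeR adjusted p = 0.203). For Dusp5 all 3 DKO libraries lay below the control libraries, and the difference passed without control FFSS replicate 1 (edgeR adjusted p = 0.000199).

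The Sprouty genes differed in opposite directions between the lines. Spry1 was at 79.9, 79.9 and 82.1 CPM in control static and 35.7, 32.5 and 35.8 CPM in the static DKO samples, for a log2 fold change of −1.22 (2.33-fold lower, SE 0.09, edgeR adjusted p = 5.03e-08). No DKO library came near the control range. Spry2 was at 11.9, 13.3 and 13.6 CPM in control and 26.7, 25.1 and 26.6 CPM in the static DKO samples, for a log2 fold change of 1.01 (2.02-fold, SE 0.10, edgeR adjusted p = 1.63e-06). Spry4 was at 7.19, 6.40 and 5.68 CPM in control and 15.6, 16.0 and 14.7 CPM in the static DKO samples, for a log2 fold change of 1.26 (2.40-fold, SE 0.15, edgeR adjusted p = 8.01e-06). For both genes every DKO library was higher than every control library. Spred2 was lower by 0.54 (−0.54, 1.45-fold, 66.0 ± 1.05 against 95.7 ± 2.21 CPM, edgeR adjusted p = 9.19e-05), and Spred1 differed by 0.10 (edgeR adjusted p = 0.221).

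Under FFSS all 10 genes passed between the genotypes in edgeR, 4 higher and 6 lower in DKO cells, where 56.6% of all genes passed (27% higher and 29.6% lower). Called over 2-fold were Dusp4 (−1.99, 3.97-fold lower, edgeR adjusted p = 1.43e-06), Spry4 (1.17, 2.25-fold) and Spry2 (1.05, 2.07-fold), where 17.2% of all genes were called (8.25% higher and 8.96% lower). Spry1 (−0.74, 1.67-fold lower) and Spred2 (−0.39) were again lower, and Dusp10 (0.49) was again higher, though not past the threshold with library totals (0.29, edgeR adjusted p = 0.0875). Dusp6 (−0.67, edgeR adjusted p = 0.00811), Dusp5 (−0.66, edgeR adjusted p = 0.0450), Dusp1 (−0.50, edgeR adjusted p = 0.0171) and Spred1 (0.24, edgeR adjusted p = 0.00502) passed here although they had not in static cells. The interaction did not pass for these 4 genes in the fit of all 12 libraries (for Dusp1 −0.35, edgeR adjusted p = 0.359, and for Spred1 0.15, edgeR adjusted p = 0.342, with Dusp5 and Dusp6 as above), whereas all 4 passed it without control FFSS replicate 1. The groups did not overlap for 7 of 10 genes, against 58.4% of all genes (28.4% higher and 30% lower), and the overlapping ones were Dusp1, Dusp5 and Dusp6, in each of which control FFSS replicate 1 lay at or below the highest DKO library. The Dusp5 call was lost in 14 of 21 alternatives. Dusp1 passed without control FFSS replicate 1 (−0.70, edgeR adjusted p = 9.96e-09) but not without replicate 2 (−0.46, edgeR adjusted p = 0.0552) or replicate 3 (−0.32, edgeR adjusted p = 0.0747).

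**Figure D3:**
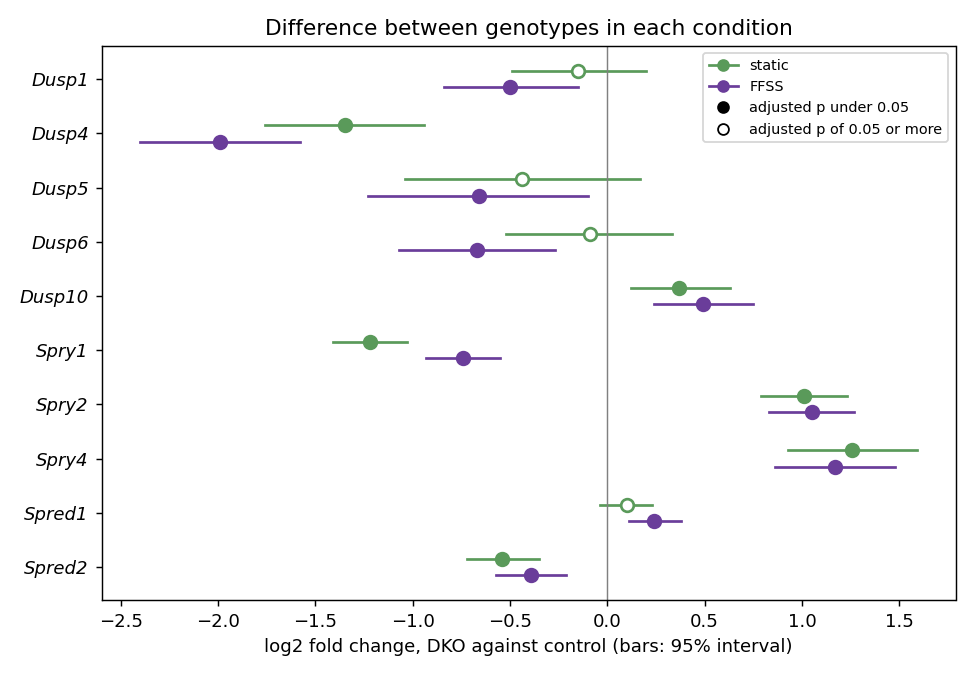
Log2 fold change of DKO against control cells (horizontal axis) for each gene in static culture (green) and under FFSS (purple). Points are edgeR estimates with 95% intervals, filled where the adjusted p was under 0.05. Dusp4, Spry1 and Spred2 lie below 0 and Spry2, Spry4 and Dusp10 above 0 in both conditions.

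On the per-length scale, the makeup of the Sprouty transcripts differed between the genotypes. Spry1, Spry2 and Spry4 together came to 35.4 ± 0.646 FPKM in control static, 30.2 ± 1.63 FPKM in control FFSS, 27.8 ± 0.989 FPKM in static and 31.8 ± 0.822 FPKM in FFSS cells of the DKO line. Spry1 made up 79.0, 77.9 and 78.4% of that sum in control static libraries and 43.2, 42.0 and 43.5% in DKO static libraries. Spry2 made up 17.6 ± 0.953% and 45 ± 0.166%, and Spry4 3.97 ± 0.537% and 12.1 ± 0.900%. Under FFSS the Spry1 share was 76.4, 63.2 and 70.1% in control cells and 40.6, 39.6 and 39.5% in DKO cells. Every control library had a higher Spry1 share than every DKO library, and in both genotypes every FFSS library had a lower share than every static library. These shares were given without a test.

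**Figure D4:**
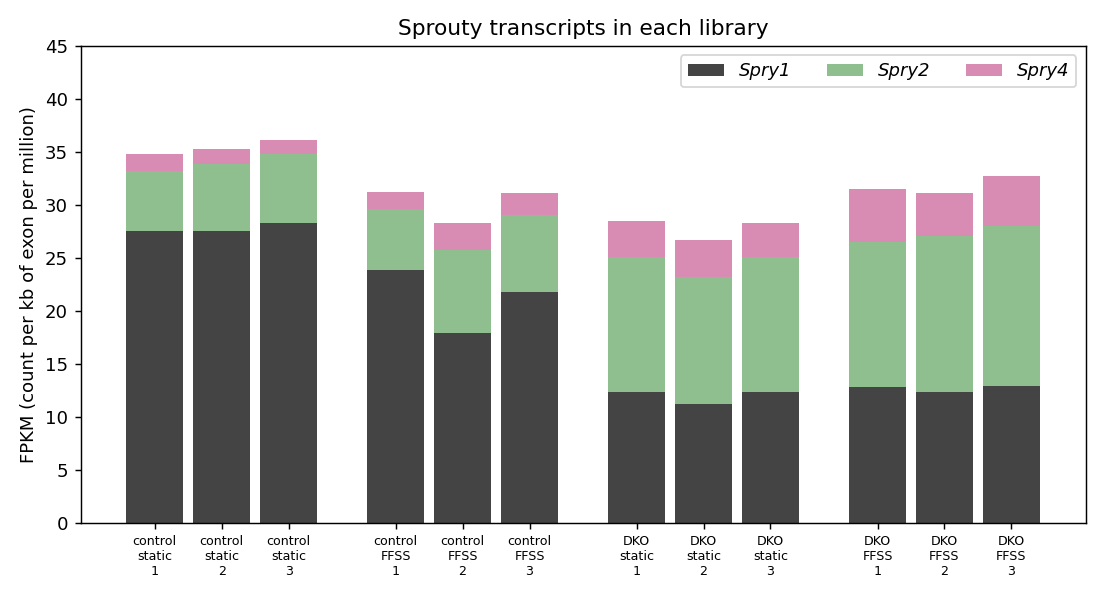
Stacked bars of Spry1 (dark), Spry2 (green) and Spry4 (pink) in FPKM (vertical axis, from 0) for each of the 12 libraries, grouped by genotype and treatment. The dark part is 17.9 FPKM or more in control libraries and 12.9 FPKM or less in DKO libraries, while the full bars span 26.7 to 36.1 FPKM.

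Genes around these inhibitors were described from 7 lists of 70 pathway genes, of which 65 were tested. In control cells 18 rose and 9 fell under FFSS, where 17.7% of all genes were higher and 18.1% lower. The 27 that passed became 18 to 49 when single libraries were left out, and 13 to 34 under the other alternatives. In DKO cells 3 rose and 1 fell, against 0.872% of all genes in either direction, and 5 passed the interaction, against 3.97%, all 5 with the lower log2 change in DKO cells. That count of 5 ranged from 1 to 30 when single libraries were left out, being 30 without control FFSS replicate 1, 3 without control FFSS replicate 2 or 3, 2 without DKO static or FFSS replicate 3, and 1 without any of the others. Their median log2 fold changes were 0.13 in control and 0.00 in DKO cells, against 0.01 and −0.01 over all genes tested. Of 14 tested transcripts that ERK is known to induce, 8 rose in control cells and 1 fell (Phlda1, −0.32), where 35.8% of all genes passed, and 3 rose in DKO cells, where 0.872% passed. Their medians were 0.37 and 0.35.

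Etv4 and Etv5, ETS factors that follow ERK activity in many tissues, rose in control cells by 1.25 and 0.90 on the log2 scale (edgeR adjusted p = 7.86e-05 and 1.57e-05). Etv4 was at 9.93, 10.5 and 10.6 CPM in control static and 17.6, 30.1 and 26.1 CPM in control FFSS libraries, against 24.1, 20.8 and 21.9 CPM in DKO static and 30.2, 29.0 and 29.4 CPM in DKO FFSS libraries. The groups did not overlap in either genotype, and Etv4 was already higher in DKO static cells (1.11, edgeR adjusted p = 3.39e-05). Its interaction was −0.84 (edgeR adjusted p = 0.0412), and those of Etv5 and of Ccnd1, the cyclin D1 gene, were −0.64 (edgeR adjusted p = 0.0142) and −0.49 (edgeR adjusted p = 0.0157), 3 of the 5 genes whose count depended on single libraries. Egr3 also rose in control cells (0.53, edgeR adjusted p = 0.0105). Junb (0.55, edgeR adjusted p = 0.0139), Egr1 (0.47, edgeR adjusted p = 0.0414) and Ier2 (0.46, edgeR adjusted p = 0.00670), which are immediate-early genes, rose in DKO cells, where the corresponding values in control cells were 0.39, 0.13 and 0.18. Junb and Ier2 also passed in control cells (edgeR adjusted p = 0.00492 and 0.0447), whereas Egr1 did not (edgeR adjusted p = 0.324). Their interactions did not pass (edgeR adjusted p = 0.478 for Junb, 0.151 for Egr1 and 0.0975 for Ier2). These calls in DKO cells rested on single libraries. Of the 4 pathway genes that passed there, Map2k1 included, 0 passed without DKO FFSS replicate 2, and 1 pathway gene passed without DKO FFSS replicate 1 or DKO static replicate 2, 2 without DKO FFSS replicate 3 or DKO static replicate 3, and 15 without control FFSS replicate 1.

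**Figure D5:**
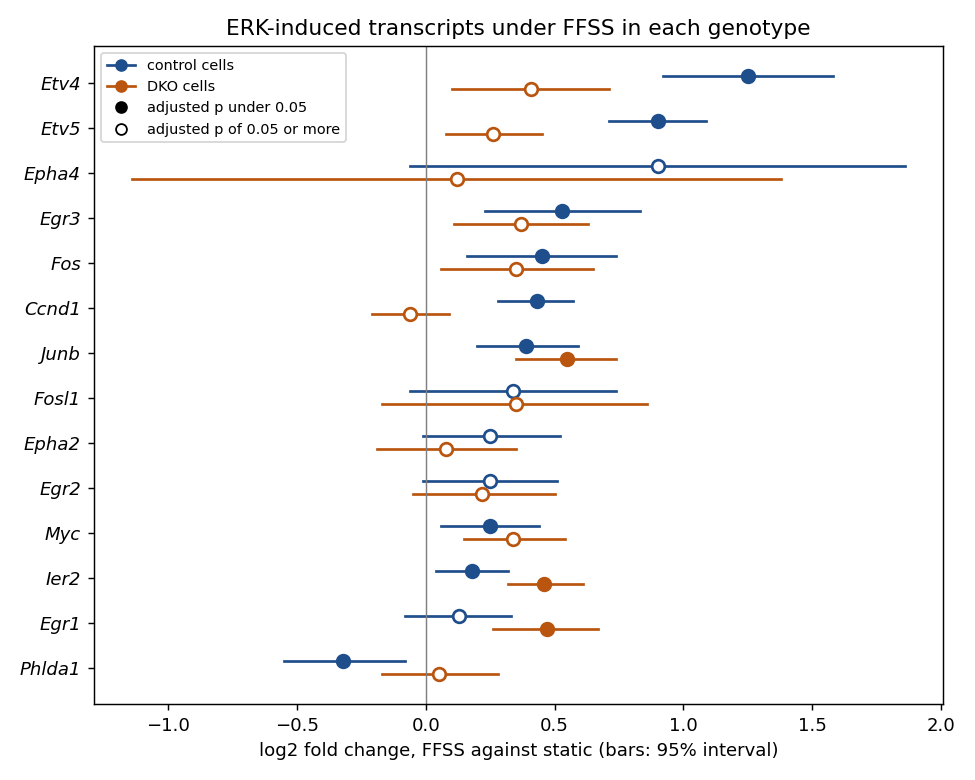
Log2 fold change of FFSS against static (horizontal axis) for the 14 tested ERK-induced transcripts in control (blue) and DKO cells (orange), with 95% intervals, filled where the edgeR adjusted p was under 0.05. Etv4 and Etv5 lie furthest to the right of the genes that passed in control cells, and Junb, Egr1 and Ier2 are the filled points in DKO cells.

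Of 10 other inhibitors of the pathway, 4 rose and 1 fell under FFSS in control cells, where 35.8% of all genes passed. Errfi1, a feedback inhibitor of EGF receptors, rose by 0.75 (edgeR adjusted p = 0.000477), from 128 to 135 CPM in static to 170 to 261 CPM in FFSS libraries, while Lrig1, which limits EGF receptor levels, rose by 0.44 (edgeR adjusted p = 0.0393) and Ier3 fell by 0.41 (edgeR adjusted p = 0.00574). Among the 4 other MAP kinase phosphatases tested, Dusp16 rose by 0.54 (edgeR adjusted p = 0.0310) and Dusp7, an ERK phosphatase related to Dusp6, fell by 0.29 (edgeR adjusted p = 0.00565). In the core cascade of 18 genes, 4 rose and 3 fell in control cells, a share close to the 35.8% of all genes, including Ksr1 (0.61), Map2k1 (−0.54), which encodes a MEK kinase, and Mapk3 (−0.52), which encodes an ERK kinase. Map2k1 also fell in DKO cells (−0.29, edgeR adjusted p = 0.0155, not passed without DKO FFSS replicate 2), from 87.6 to 90 CPM static to 72.1 to 72.8 CPM under FFSS. Of 12 receptor tyrosine kinase genes, 1 rose and 3 fell in control cells, the latter being Pdgfra (−0.86, edgeR adjusted p = 0.0267), Fgfr3 (−0.76, edgeR adjusted p = 0.00784) and Insr (−0.46, edgeR adjusted p = 0.00140).

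Between genotypes in static culture, 9 of 12 receptor tyrosine kinase genes passed, 4 higher and 5 lower in DKO cells, where 54.2% of all genes passed (27% higher and 27.2% lower). Egfr was at 17.8 to 19.7 CPM in control and 4.77 to 5.50 CPM in DKO static libraries (log2 fold change −1.86, edgeR adjusted p = 2.45e-08), and Erbb3 (−1.30) and Met (−0.97) were also lower. Of the 18 core cascade genes, 8 were higher and 4 lower in DKO cells. The largest differences were those of the adaptors Gab1 (1.39), Shc1 (1.04) and Frs2 (0.71), which link receptors to RAS and were higher. Il17rd, a membrane inhibitor of fibroblast growth factor signalling, was higher (1.02), and Ier3 (−0.78) and Errfi1 (−0.77) were lower. Smaller differences passed for Dusp7 (−0.28) and Mapk12 (−0.23). Of the ERK-induced transcripts 4 were higher (Egr3, 1.47, and Phlda1, 1.21, among them) and 5 lower, with Fosl1 at −2.13 (edgeR adjusted p = 3.06e-06). Under FFSS, where 56.6% of all genes passed, the genes with the largest differences in each list were Egfr (−2.17), Met (−1.90) and Pdgfra (1.55) of the receptors, and Gab1 (1.53), Shc1 (0.96) and Frs2 (0.72) of the core cascade. Of the other inhibitors they were Errfi1 (−1.16), Cbl (−0.87) and Ier3 (−0.77), of the ERK-induced transcripts Fosl1 (−2.13), Epha4 (−1.79) and Phlda1 (1.57), and of the other MAP kinases Mapk11 (−0.33), Mapk12 (−0.32) and Mapk8 (0.26).

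The genes whose log2 CPM followed each inhibitor most closely over the 12 libraries were listed as a description, among 11263 genes with an average log2 CPM above 1. For Dusp6 these were Pdss1 (r = 0.993), 1300001I01Rik (r = 0.982) and Polr1b (r = 0.981), and for Dusp5 Irf1 (r = 0.974), Rrp9 (r = 0.957) and Rrp1b (r = 0.955). For Dusp4 they were Alcam (r = 0.992), Aif1l and Fanca, for Spry1 Hspa8 (r = 0.996), 1190005I06Rik and Ftl1, for Spry2 B3gntl1 (r = 0.987) and Rffl, and for Spry4 Orai2 (r = 0.981), Sash1 and Ptpn3. For Dusp1 they were Zfp238 (r = 0.945), Scrib and Aebp1, for Dusp10 Gpr176 (r = 0.986), Naa16 and Enc1, for Spred1 Ppp3r1 (r = 0.989), Tram1 and Pfdn5, and for Spred2 Elmo1 (r = 0.992), Lix1l and Phf2. The number of genes at r over 0.95 ranged from 0 for Dusp1, 6 for Dusp10, 10 for Dusp5 and 38 for Dusp6 to 302 for Spry2, 418 for Dusp4 and 461 for Spry1. All points share the same 12 libraries and the same normalisation.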

How the data were processed

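RNA was measured in 12 libraries, 3 for each of control static, control FFSS, DKO static and DKO FFSS Ocy454 cells, grouped by their titles. Per the submitters' processing notes and the study's methods, the authors aligned single-end BGISEQ reads with STAR to mm9 with Ensembl genes and counted them with HTSeq, not stranded, so reads from opposite-strand overlaps cannot be assigned. The deposited values are raw counts per Ensembl gene, neither normalised nor filtered. Symbols and exon lengths came from an mm9 annotation (37168 of 37583 IDs, 98.9%, had a symbol), and promoters from RefSeq (GRCm38.p6).

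The 10 genes, the gene lists and the tests were chosen with earlier results of these data known. Following the study's filter, genes with 0 counts in 2 or more libraries were removed, leaving 14904 of 24360 with any count. All 12 libraries were fitted as 4 groups with edgeR 4.0.16 (R 4.3.3; robust quasi-likelihood test, TMM factors), with Benjamini-Hochberg adjustment over all genes tested. A gene passed at an adjusted p under 0.05 and was called if it also changed over 2-fold. SEs were derived from the F statistic, and 95% intervals from t quantiles. CPM used TMM-scaled totals, log2 CPM a prior count of 2, and FPKM is CPM per kb of exon. Intervals cover the spread between libraries, which the labels do not describe as separate cultures, so p-values may measure technical spread only. Floors cover counting error only. The test was tried on simulated data with the same spread in all groups, which does not cover the wider spread of control FFSS cells.

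Named pathway genes were up to 3 that passed with the largest absolute change per list and comparison, and Phlda1 in control cells, the 1 ERK-induced transcript that fell, was named after its value was seen, as were further values of Junb, Egr1, Ier2 and Etv4. No replicate pair matched within sampling noise. Libraries of the same replicate number did not deviate together on average (closing section), and the labels do not say whether they were handled in pairs. Alternatives were RLE factors, library totals, other filters, 6 libraries alone, DESeq2 1.42.0, limma-voom 3.58.1, a replicate block, the share of reads outside genes as covariate, and leaving out each library.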

Additional observations from a re-analysis of the deposited data

Results flagged for a closer look

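The responses to FFSS of 6 pathway genes differed between control and DKO cells by the edgeR interaction test. The difference in log2 fold change (DKO minus control) was 0.48 for Spry1, the only feedback inhibitor among the 10 to pass. It was −0.65 for Il17rd (edgeR adjusted p = 0.0459), −0.70 for Ksr1, a scaffold of the RAF, MEK and ERK kinases (edgeR adjusted p = 0.0308), −0.84 for Etv4, −0.64 for Etv5 and −0.49 for Ccnd1. Spry1 passed in 7 of 20 alternatives. Of the pathway genes outside the 10, 5 passed here and 3 with limma-voom, where 673 of the 14904 genes tested passed. The count was 1 when any single control static library, DKO static replicate 1 or 2, or DKO FFSS replicate 1 or 2 was left out. It was 2 without DKO static or FFSS replicate 3, 3 without control FFSS replicate 2 or 3, and 30 without control FFSS replicate 1. Ksr1 rose in control cells from 20.1 to 23.0 CPM static to 28.2 to 39.8 CPM under FFSS, and was at 25.3 to 29.0 CPM static and 23.6 to 26.7 CPM under FFSS in DKO cells.

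The targeted gene Hdac5 also responded differently, with an interaction of 0.85 (edgeR adjusted p = 0.00152). It was at 133 ± 7.04 CPM in control static and 81.2 ± 9.56 CPM in control FFSS cells, against 84.5 ± 5.54 and 92.8 ± 0.456 CPM in DKO cells (SD, n = 3 each).

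Reads outside annotated genes, which no comparison used as a measurement, were more frequent under FFSS than in static culture. Their share reached 10% in control FFSS and 8.55% in DKO FFSS cells, where the highest static libraries had 5.21% and 7.14%. The part of this share in the responses was not tested beyond its use as a term in the model, whose values are given with the control response.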

How the results depend on the processing

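Of 1040 log2 fold changes of the 10 genes under 21 alternatives (20 for the interaction), 927 kept their direction and side of the threshold, 56 lost and 30 gained a call and 27 reversed. The counts of genes that differed between genotypes stayed within 1.5 times, and Dusp6 under FFSS in control cells passed throughout, at 0.46, under 2-fold, with the share of reads outside genes in the model. For FFSS in control cells, 2 of the 10 inhibitors and 13 pathway genes passed with 6 libraries alone, and 3 inhibitors with the share of reads outside genes in the model. For FFSS in DKO cells, 4 inhibitors and 16 pathway genes passed with 6 libraries alone, 2 and 7 with DESeq2, and 3 and 14 with that share. For the interaction, 0 inhibitors passed with library totals or filterByExpr, and pathway genes numbered 8 with library totals, 9 with DESeq2, 3 with limma-voom and 8 with that share. Of the 14904 genes tested, 834 passed the interaction with library totals, 1124 with DESeq2 and 673 with limma-voom. With reads outside genes in the model 5.86% of all genes passed it, and for filterByExpr no such value is given. With a replicate block the interaction gave 3 pathway genes and every other count stayed within 1.5 times, with 6, 0 and 1 inhibitors passing in control cells, in DKO cells and in the interaction. Of the 14904 genes tested, 5147, 70 and 418 passed with the block in the same comparisons. Deviations of same-numbered libraries had a mean correlation of 0.00226 (range −0.0603 to 0.0631), against −0.00116 for different numbers. These values do not show whether libraries were handled in pairs.

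Leaving out single libraries gave 3 to 9 inhibitors and 18 to 49 pathway genes for FFSS in control cells, 0 to 3 and 0 to 15 in DKO cells, and 0 to 7 and 1 to 30 for the interaction, each maximum without control FFSS replicate 1. The reversed values were Dusp10 in control cells with library totals (0.11), Spry2 in the interaction with library totals (−0.08), and Spred1 in DKO cells with RLE factors and DESeq2 (0.00), and with library totals and 6 libraries alone (0.01). With the share of reads outside genes they were −0.45 for Dusp1, −0.05 for Dusp5 (0.98 and past the threshold without that term), −0.15 for Spry2 and 0.06 for Spred1 in control cells, −0.19 for Dusp4, −0.04 for Dusp10 and 0.07 for Spred1 in DKO cells, and 0.09 for Dusp1, 0.49 for Dusp5, 0.18 for Spry4 and −0.03 for Spred2 in the interaction. When single libraries were left out, Dusp10 ranged from −0.17 to 0.14 in control cells and from −0.04 to 0.27 in the interaction, Dusp4 from −0.07 to 0.07 and Spred1 from −0.01 to 0.01 in DKO cells, and Spry2 from −0.08 to 0.14 and Spry4 from −0.25 to 0.08 in the interaction. Library totals moved the median of all genes to 0.13 for FFSS in control cells, −0.13 for the interaction and −0.25 for the genotype difference under FFSS (0.01, −0.02 and −0.05 with TMM). The cause of these changes was not tested. The lowest level of the 10 genes in any library was 5.68 CPM, where the floors were 0.156 to 0.171 CPM.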
